A study of Homo sapiens with 9 samples.

Results

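The genes described here encode the machinery of programmed cell death: 35 genes of the BCL2 family, the caspases, death receptor signalling, the inhibitor of apoptosis (IAP) proteins, necroptosis and the gasdermins. They were chosen by name, and all 35 were found among the 58735 genes of the deposited table. The RNA came from HCT116, a human cell line established from a colorectal carcinoma, with 3 libraries in each of 3 groups. The groups were wild-type cells (A20-WT), cells in which the A20 gene TNFAIP3 was targeted with a guide RNA from a LentiCRISPR v2 lentivirus followed by puromycin selection (A20-KO), and cells labelled A20-OE, which the study describes as A20-KO cells rescued with A20. The A20 expression vector named in the methods carries a CMV promoter and a Flag tag. The sources used here do not state which guide was used, whether the A20-KO cells were a clone, or whether the A20-WT cells received a control virus. No treatment, dose or time is given for any group. The replicate numbers are not tied to separate cultures, so the p-values measure the spread between these libraries, which may be technical.

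A20 is a ubiquitin-editing protein that restrains NF-kB signalling downstream of TNF receptors and limits both caspase-8 dependent apoptosis and RIPK3-dependent necroptosis. In the mitochondrial pathway, BH3-only proteins antagonise the anti-apoptotic BCL2 proteins and engage BAK and BAX, which permeabilise the outer membrane. Released cytochrome c then assembles the APAF1 apoptosome, which activates caspase-9. Death receptors recruit FADD and caspase-8 instead, with cFLIP (CFLAR) as the brake, and when caspase-8 is blocked RIPK3 can phosphorylate MLKL, which breaks the plasma membrane.

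The stretches of DNA upstream of BMF, MLKL and CASP2 are shown because these were, with CASP4, the members with the largest changes that passed the test in A20-KO against A20-WT. They are RefSeq promoter sequences on GRCh38.p14, written 5′ to 3′ on the gene's strand, and capitals mark a GC box (GGGCGG on either strand) or an NF-kB (kB) site. The BMF stretch is chr15:40108880-40109029 on the minus strand and covers 150 to 1 bases before the start. The MLKL stretch is chr16:74700961-74701112 on the minus strand, and the CASP2 stretch is chr7:143288101-143288214 on the plus strand. The last 2 end before the most upstream annotated start of the gene, 99 and 137 bases before the RefSeq start used.
BMF: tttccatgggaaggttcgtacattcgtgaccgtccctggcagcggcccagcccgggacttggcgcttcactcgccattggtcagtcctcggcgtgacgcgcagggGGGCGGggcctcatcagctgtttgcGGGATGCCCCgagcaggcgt
MLKL: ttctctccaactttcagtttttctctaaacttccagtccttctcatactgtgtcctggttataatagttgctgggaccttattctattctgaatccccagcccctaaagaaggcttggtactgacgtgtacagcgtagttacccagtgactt
CASP2: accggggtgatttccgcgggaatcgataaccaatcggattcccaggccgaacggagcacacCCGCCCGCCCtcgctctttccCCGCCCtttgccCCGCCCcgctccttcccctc
Over the 250 bases before the start, 27 of the 35 members could be matched to a RefSeq promoter. The GC box was found in 19 of these 27 and in 42.6% of all 35116 promoters of the same length. The kB site was found in 2 of 27, BMF and CFLAR, and in 5.21% of all promoters. In BMF it lay 20 to 11 bases before the start on the opposite strand and did not overlap the GC box at 45 to 40. In CFLAR the kB site overlapped a GC box. TATAAA was found upstream of BCL2A1, BCL2L1 and TNFSF10, 3 of 27, against 10.7% of all promoters. The MLKL window held none of these motifs. These are matches of letters in a window and not measured binding sites.

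Levels are FPKM as the authors deposited them, mapped fragments scaled to gene length and to a depth set for each library. The libraries held 23406222 to 24963691 reads assigned to genes, recovered as whole reads from the FPKM and gene lengths. Mitochondrial transcripts took 8.79% ± 1.30 (SD, n = 3) of reads in A20-WT, 10.4% ± 1.36 in A20-KO and 12.7% ± 1.08 in A20-OE. The epithelial markers EPCAM, KRT8, KRT18, KRT19 and CDH1 were above 10 FPKM in every library, and KRT19 rose in A20-KO against A20-WT (log2 fold change 1.02). The leukocyte markers PTPRC, CD3E and CD68 had at most 5 reads in any library, and COL1A2 at most 1. The other defining markers of fibroblasts and endothelium were PDGFRB with 3 to 16 reads, PECAM1 with 4 to 27, VWF with 24 to 56, and COL1A1, which rose from 5.32 FPKM in A20-WT to 13.3 in A20-KO. Their part in the results below was not tested.

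TNFAIP3 mRNA did not follow the A20-KO label. Its FPKM was 0.869, 0.800 and 0.736 in the A20-WT libraries, 1.93, 2.16 and 1.04 in those labelled A20-KO, and 58.7, 66.5 and 56.5 in the A20-OE libraries. The log2 fold change was 0.95 (adjusted p = 0.018) in A20-KO against A20-WT and 5.13 (adjusted p = 2.1e-05) in A20-OE against A20-KO. The call in A20-KO against A20-WT did not hold without A20-WT replicate 2, A20-KO replicate 1 or A20-KO replicate 2 (adjusted p 0.0544 to 0.0701). That call was also lost with only the 2 groups compared (adjusted p = 0.083). A count over the whole gene includes reads outside any guide site and does not measure the protein, so it is no check of the edit. Each direction given below therefore refers to the libraries labelled A20-KO.

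Of the 35 members, 10 had a mean of at least 10 FPKM over the 9 libraries, 15 had 1 to under 10, 6 had 0.1 to under 1, and 4 were under 0.1. The most abundant transcripts were BCL2L1, CYCS, MCL1, PMAIP1 and BIK. BCL2A1, CASP1, TNFSF10 and RIPK3 were under 0.1 and were not tested. In bulk RNA, fewer cells expressing a gene and less RNA per cell cannot be told apart.

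**Figure D1:**
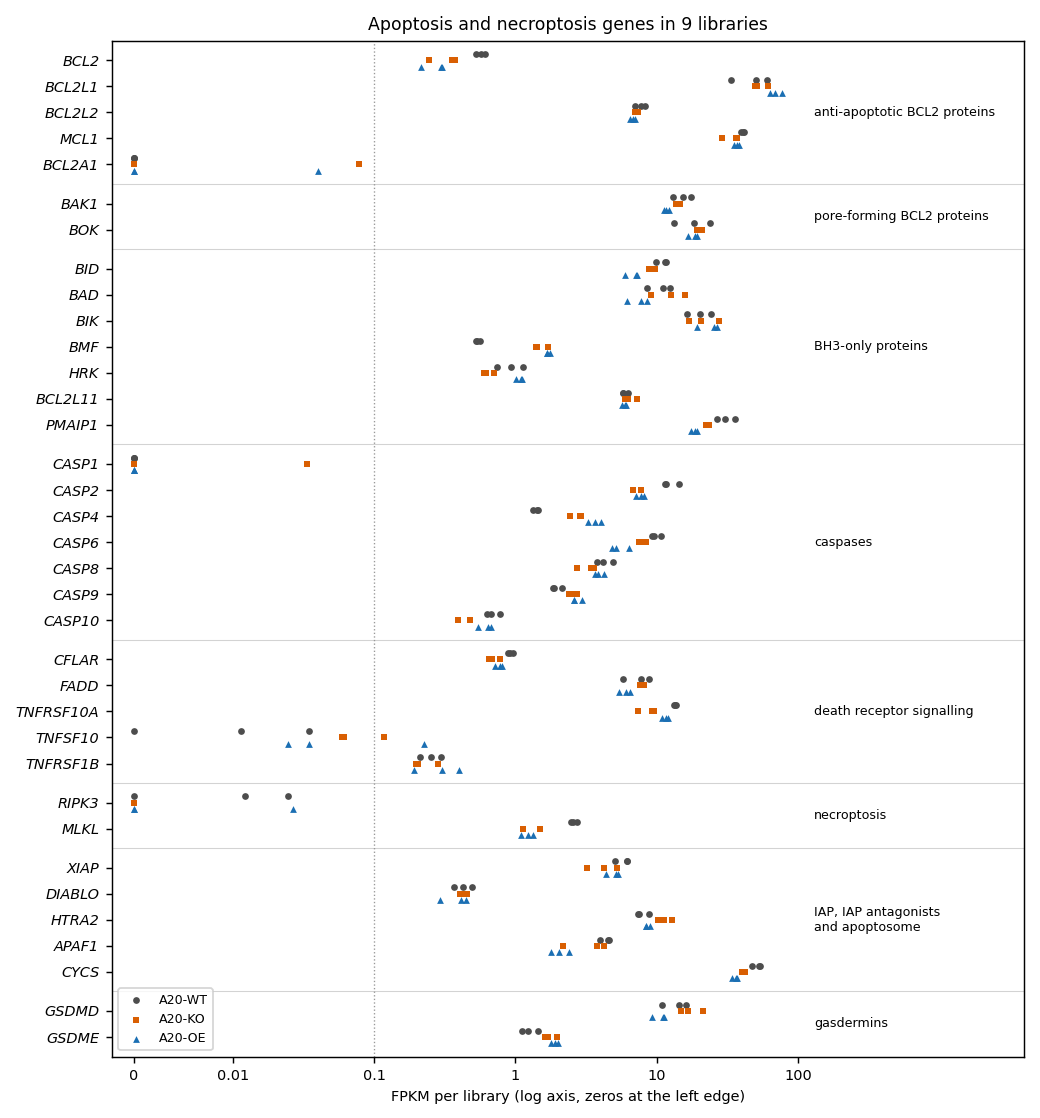
FPKM of each of the 35 members in each of the 9 libraries, on a log axis with zeros drawn at the left edge and members ordered by role. Each symbol is 1 library, and the dotted line marks 0.1 FPKM, the minimum mean for a test: BCL2A1, CASP1, TNFSF10 and RIPK3 lie mostly to its left, while BCL2L1, CYCS and MCL1 lie furthest right.

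Changes were called with limma on log2(FPKM + 0.1), at an adjusted p (Benjamini-Hochberg, over all 21636 genes tested) under 0.05. In A20-KO against A20-WT, 9 of the 31 members tested passed: BMF, CASP4 and HTRA2 rose, and MLKL, CASP2, TNFRSF10A, CASP10, PMAIP1 and CYCS fell. Among all genes 11.3% rose and 11% fell, against 9.68% and 19.4% of the members tested. The median log2 fold change was -0.12 over the members and -0.0050 over all genes. BMF alone also exceeded a 2-fold change, which 6.99% of all genes did.

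In A20-OE against A20-KO no member rose and 3 fell, GSDMD, CASP6 and BID, while 4.43% of all genes rose and 4.54% fell. At an unadjusted p under 0.05 the counts were 4 higher and 10 lower, beside 12.6% and 12.9% of all genes. Limma-voom on the recovered reads called 1 higher and 5 lower, beside 4.68% and 7.58% of all genes. No member passed a 2-fold change by limma or by limma-voom, against 2.39% and 2.93% of all genes. In A20-OE against A20-WT 4 rose and 9 fell, 12.9% and 29% of the members tested, against 15.7% and 15.4% of all genes. BMF, CASP4, APAF1 and MLKL were past 2-fold there, as were 11.9% of all genes. Without A20-OE replicate 3, this count was 2. These comparisons share libraries, so their calls are not independent of each other. The libraries of the groups compared did not overlap for any member that passed. Such separation, here and for single genes below, is favoured by selection on a small p. It is no further support, and its share over all genes was not counted.

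**Figure D2:**
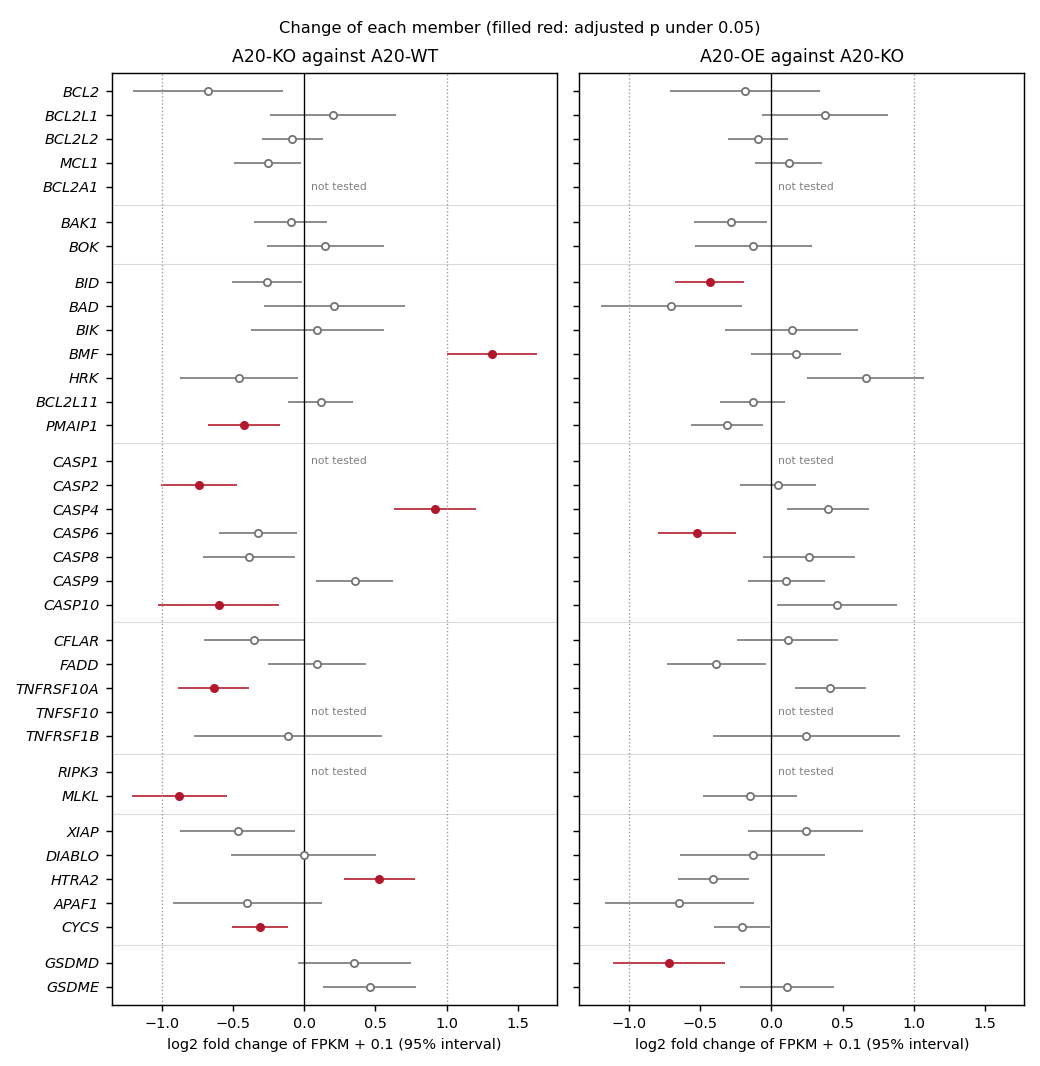
Log2 fold change of FPKM + 0.1 for each member in A20-KO against A20-WT (left) and A20-OE against A20-KO (right), with 95% intervals from limma; filled red points passed an adjusted p of 0.05 and dotted lines mark a 2-fold change. On the left 3 members sit to the right of 0 and 6 to the left among the filled points, and on the right the 3 filled points are all below 0.

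The differences between groups also followed base composition. Across 12789 genes with a mean of at least 1 FPKM, the log2 difference of A20-KO from A20-WT correlated with the GC content of the gene at r = 0.40, and that of A20-OE from A20-KO at r = -0.26. A20-WT replicates 1 and 3 departed from the other A20-WT libraries in opposite directions along GC content (r = -0.62 and 0.59). After a GC content correction, chosen after seeing the data, BMF, CASP4, MLKL, CASP2 and TNFRSF10A still passed in A20-KO against A20-WT, and HTRA2, PMAIP1, CYCS and CASP10 did not. The corrected fit called 4 others there, BAK1 (-0.36 on the log2 scale, adjusted p = 0.0045), BOK (-0.31, 0.027), BCL2L11 (0.24, 0.047) and GSDME (0.56, 0.012), so the count stayed at 9 with 5 shared. The 5 shared calls also held under each of the other alternatives tried, including each library left out.

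Among the anti-apoptotic BCL2 proteins, which bind and hold back BH3-only proteins and the pore formers, none passed in A20-KO against A20-WT or A20-OE against A20-KO in the main limma fit. At an unadjusted p under 0.05 there were 2 and 0 of the 4 tested, beside 35.5% and 25.5% of all genes. BCL2L1, which encodes BCL-XL, had the highest level, at 47.9 ± 13.3 FPKM (SD, n = 3) in A20-WT, 53.9 ± 6.24 in A20-KO and 69.9 ± 6.94 in A20-OE. MCL1, a short-lived relative, had 40.6 ± 1.17, 34.1 ± 4.29 and 37.0 ± 1.49 FPKM. BCL2L2 (BCL-W) ranged from 6.46 to 8.27 FPKM over the 9 libraries. All 3 A20-OE libraries had more BCL2L1 than any other library, with a log2 fold change of 0.58 against A20-WT that missed the threshold (adjusted p = 0.051). It passed under 5 of 19 alternatives, with adjusted p values up to 0.15 under the others. The adjusted p was 0.036 with a mean of at least 1 FPKM, 0.023 with the replicate block and 0.026 with limma-voom. It was 0.024 with the GC content correction and 0.018 without A20-WT replicate 3.

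BCL2 itself, the founding member, fell in A20-OE against A20-WT from 0.571 ± 0.0410 to 0.271 ± 0.0480 FPKM (log2 fold change -0.86, adjusted p = 0.021). That call did not hold without A20-WT replicate 2 (adjusted p = 0.0663), without A20-OE replicate 2 (0.0608) or with no filter on low values (0.0564). In the libraries labelled A20-KO the BCL2 level was 0.324 ± 0.0694 FPKM (log2 fold change -0.68 against A20-WT, adjusted p = 0.069). That difference passed with a pseudocount of 1 (adjusted p = 0.049), with no variance trend (0.026) and with limma-voom (-0.85, adjusted p = 0.010). It did not pass under the other alternatives (adjusted p up to 0.16). BCL2A1 had 0 reads in each A20-WT library, 0, 0 and 2 in those labelled A20-KO, and 0, 0 and 1 in A20-OE, all at or under the 3 reads taken as the floor.

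As a share of the summed FPKM of these 5 genes, BCL2L1 was 48.9% ± 6.75 (SD, n = 3) in A20-WT, 56.3% ± 5.24 in A20-KO and 61.3% ± 3.20 in A20-OE. MCL1 was 42.6% ± 5.89, 35.8% ± 5.17 and 32.6% ± 2.82, and BCL2 stayed under 1% in every library. The BCL2L1 share ran from 41.7% to 55.1% among the A20-WT libraries alone. The A20-WT and A20-OE shares did not overlap, and the shares in those labelled A20-KO overlapped both. The sum itself was 96.7 ± 14.5 FPKM in A20-WT, 95.6 ± 2.25 in A20-KO and 114 ± 5.34 in A20-OE, and these sums and shares were not tested. The exons of BCL2L1 overlap an antisense gene, ABALON, over 43.0% of their bases, and gene-level values do not separate the long and short isoforms of BCL2L1 or MCL1.

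**Figure D3:**
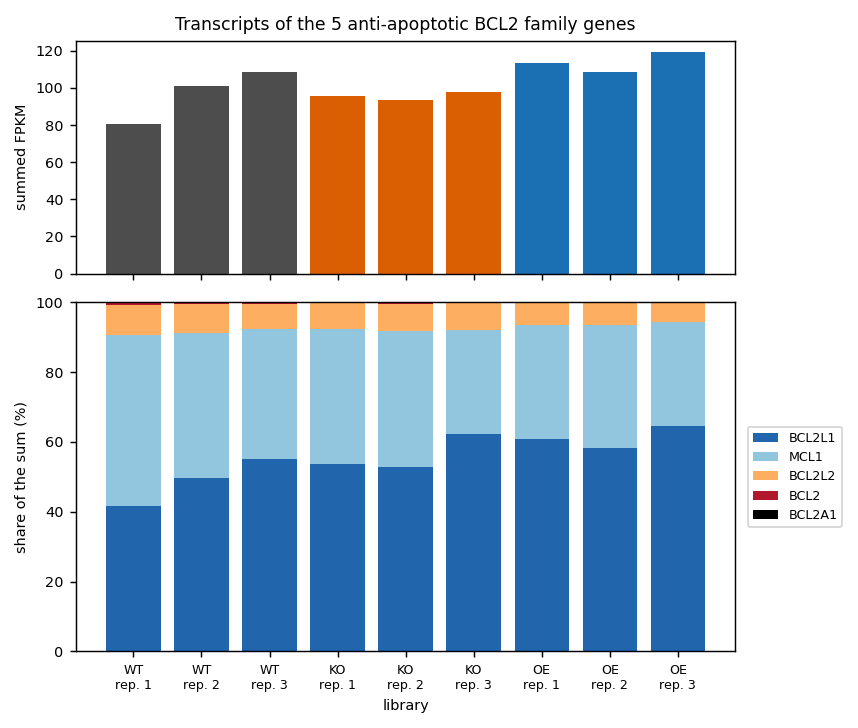
Summed FPKM of the 5 anti-apoptotic BCL2 family genes in each library (top, bars from 0) and the share of each gene in that sum (bottom). BCL2L1 and MCL1 make up most of the bar in every library, and the BCL2L1 share runs from 41.7% in A20-WT replicate 1 to 64.7% in A20-OE replicate 3.

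Of the pore-forming proteins, BAK1 (BAK) fell in A20-OE against A20-WT from 15.3 ± 2.31 to 11.7 ± 0.525 FPKM (log2 fold change -0.38, adjusted p = 0.032). The BAK1 call did not hold in 6 of the 9 fits that left out a library, those without A20-WT replicate 2 or 3, A20-KO replicate 1 or any A20-OE library (adjusted p 0.0518 to 0.0958). It was also lost with only the 2 groups compared (adjusted p = 0.067) and with no variance trend (0.064). BOK, a BAK and BAX relative, was at 18.4 ± 5.23, 19.9 ± 0.832 and 18.2 ± 1.49 FPKM. Its log2 fold change in A20-KO against A20-WT was 0.15 (adjusted p = 0.61) and turned to -0.31 (adjusted p = 0.027) with the GC content correction. The GC content of BOK is 66.0%.

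Of the BH3-only proteins, which start the mitochondrial pathway, BMF showed the largest change of any member that passed in A20-KO against A20-WT. BMF (chr15:40087890-40108892) encodes a BCL2-modifying factor known for responding to loss of attachment. Its FPKM was 0.562, 0.529 and 0.536 in A20-WT, 1.70, 1.39 and 1.43 in those labelled A20-KO, and 1.67, 1.69 and 1.76 in A20-OE. Every library of the last 2 groups was above every A20-WT library, and those 2 groups overlapped each other. The log2 fold change was 1.32 (SE 0.14, adjusted p = 0.00048) in A20-KO against A20-WT and 0.17 (95% interval -0.14 to 0.49, adjusted p = 0.48) in A20-OE against A20-KO. An antisense gene, BMF-AS1, shares 8.46% of the exonic bases of BMF.

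PMAIP1, which encodes NOXA, the partner of MCL1, had 35.9, 30.3 and 26.9 FPKM in A20-WT, 22.2, 23.6 and 23.3 in those labelled A20-KO, and 18.8, 17.4 and 19.4 in A20-OE. The 3 groups did not overlap. PMAIP1 fell by 0.42 on the log2 scale in A20-KO against A20-WT (adjusted p = 0.026), and after the GC content correction its log2 fold change was -0.14 (adjusted p = 0.33). The call did not hold without A20-WT replicate 2 or without any 1 of the libraries labelled A20-KO (adjusted p 0.0559 to 0.0888). That call was also lost with only the 2 groups compared (adjusted p = 0.072) and with no variance trend (0.059). In A20-OE against A20-WT PMAIP1 fell by 0.73 (adjusted p = 0.0013). A20-OE against A20-KO did not pass in the main fit (-0.31, adjusted p = 0.12). It passed under 3 of 19 alternatives, over which the adjusted p ran from 0.016 to 0.31.

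BID, which caspase-8 cleaves to link death receptors to mitochondria, had 11.7, 9.95 and 11.4 FPKM in A20-WT, 9.04, 8.76 and 9.68 in those labelled A20-KO, and 7.09, 5.98 and 7.24 in A20-OE. It fell in A20-OE against A20-KO (-0.43 on the log2 scale, adjusted p = 0.042) and in A20-OE against A20-WT (-0.69, adjusted p = 0.0015). The first of these calls did not hold in 7 of the 9 fits with a library left out, all but those without A20-WT replicate 1 or 3 (adjusted p 0.0564 to 0.137), and the second held in all 9. The first was also lost with no filter on low values (adjusted p = 0.057) and with no variance trend (0.080).

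The other BH3-only members did not pass in any comparison in the main fit. HRK (harakiri) was at 0.931 ± 0.197 FPKM in A20-WT, 0.642 ± 0.0520 in A20-KO and 1.07 ± 0.0613 in A20-OE, with a log2 fold change of 0.66 in A20-OE against A20-KO (adjusted p = 0.056). BAD, a sensitiser regulated by phosphorylation, was at 10.7 ± 1.98, 12.5 ± 3.36 and 7.51 ± 1.22 FPKM (-0.70 in A20-OE against A20-KO, adjusted p = 0.081). In that comparison HRK passed under 5 of 18 alternatives (adjusted p 0.030 to 0.044), with values up to 0.17 under the others. BAD passed there under 3 of 19 (0.025 to 0.046), with values up to 0.26 under the others. BIK, an ER-resident sensitiser, ranged from 16.4 to 27.4 FPKM over all libraries, and BCL2L11, which encodes the activator BIM, from 5.72 to 7.24.

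**Figure D4:**
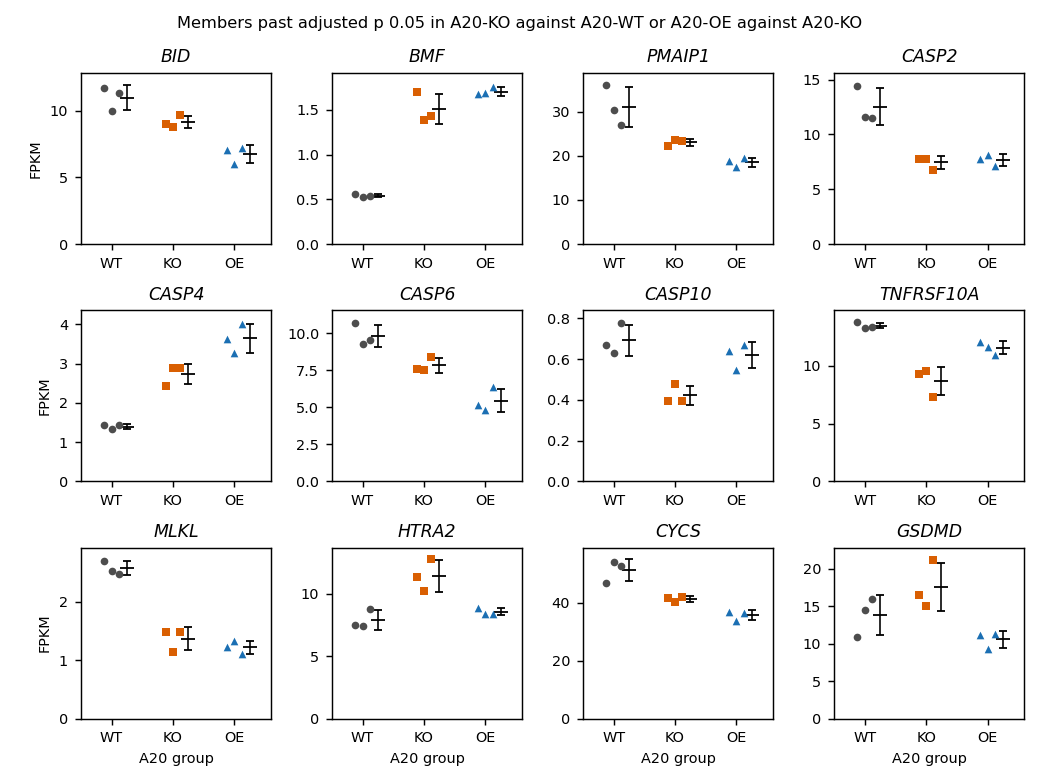
FPKM per library (symbols) with the mean and SD of 3 libraries (black bars) for the 12 members past an adjusted p of 0.05 in A20-KO against A20-WT or in A20-OE against A20-KO, each axis starting at 0. BMF and CASP4 are lowest in A20-WT, MLKL and CASP2 are highest there, and TNFRSF10A and CASP10 are lowest in the libraries labelled A20-KO.

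Among the caspases, CASP4, an inflammatory caspase that senses cytosolic lipopolysaccharide and cleaves gasdermin D, rose with no overlap between any pair of groups. CASP4 (chr11:104942866-104969436) had 1.44, 1.32 and 1.43 FPKM in A20-WT, 2.43, 2.88 and 2.90 in those labelled A20-KO, and 3.64, 3.28 and 4.01 in A20-OE. The log2 fold change was 0.92 (SE 0.13, adjusted p = 0.0015) in A20-KO against A20-WT and 1.32 (adjusted p = 0.00011) in A20-OE against A20-WT. In A20-OE against A20-KO it was 0.40 (adjusted p = 0.085). CASP1, which lies near it on chromosome 11 and encodes the caspase of the canonical inflammasome, had 3 reads in A20-KO replicate 1 and 0 reads in each other library.

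CASP2, the conserved caspase activated by the PIDDosome, fell. CASP2 (chr7:143288215-143307696) had 14.5, 11.6 and 11.5 FPKM in A20-WT, 7.79, 7.76 and 6.79 in those labelled A20-KO, and 7.79, 8.17 and 7.09 in A20-OE. Every A20-WT library was above all others, and the other groups overlapped. The log2 fold change was -0.74 (SE 0.12, adjusted p = 0.0030) in A20-KO against A20-WT and 0.04 (95% interval -0.22 to 0.31, adjusted p = 0.85) in A20-OE against A20-KO.

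CASP6, an effector caspase, had 10.7, 9.29 and 9.53 FPKM in A20-WT, 7.60, 7.52 and 8.41 in those labelled A20-KO, and 5.15, 4.85 and 6.36 in A20-OE. The 3 groups did not overlap, but A20-KO against A20-WT did not pass (-0.32 on the log2 scale, adjusted p = 0.089). CASP6 fell in A20-OE against A20-KO (-0.52, adjusted p = 0.033) and in A20-OE against A20-WT (-0.85, adjusted p = 0.00090). The first call did not hold without A20-WT replicate 2, any of the libraries labelled A20-KO, or A20-OE replicate 1 or 2 (adjusted p 0.0564 to 0.122). That call was also lost with no variance trend (adjusted p = 0.064). CASP9, the apoptosome caspase, rose in A20-OE against A20-WT from 1.95 ± 0.149 to 2.72 ± 0.213 FPKM (log2 fold change 0.46, adjusted p = 0.018), a call that did not hold without A20-WT replicate 2 (adjusted p = 0.0608) or A20-OE replicate 2 (adjusted p = 0.0644). In the libraries labelled A20-KO CASP9 was at 2.52 ± 0.180 FPKM, with a log2 fold change of 0.35 against A20-WT (adjusted p = 0.064). That difference passed with a mean of at least 1 FPKM (adjusted p = 0.048) and under no other alternative (adjusted p up to 0.16). In A20-OE against A20-KO the log2 fold change of CASP9 was 0.10 (adjusted p = 0.63).

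The initiators that dock on death receptors lie side by side with CFLAR on chromosome 2. CASP10 had 0.668, 0.632 and 0.779 FPKM in A20-WT, 0.395, 0.476 and 0.395 in those labelled A20-KO, and 0.642, 0.546 and 0.670 in A20-OE. It fell by 0.60 on the log2 scale in A20-KO against A20-WT (adjusted p = 0.049), without overlap. This call was lost under 15 of 18 alternatives, among them all 9 fits with a library left out (adjusted p 0.0569 to 0.124). CASP8 was at 4.28 ± 0.574, 3.26 ± 0.454 and 3.91 ± 0.300 FPKM, with a log2 fold change of -0.39 in A20-KO against A20-WT (adjusted p = 0.085). CFLAR was at 0.920 ± 0.0425, 0.700 ± 0.0666 and 0.765 ± 0.0441 FPKM (-0.35, adjusted p = 0.14). The mean of each of these 3 genes was lowest in the libraries labelled A20-KO, but the share of all genes with their lowest mean there was not counted. Isoforms of CASP8 and CFLAR were not separated. The summed level of the 7 caspases was 30.7 ± 2.91 FPKM in A20-WT, 24.2 ± 0.247 in A20-KO and 24.0 ± 0.830 in A20-OE, with CASP2 and CASP6 as the largest parts.

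In death receptor signalling TNFRSF10A, which encodes TRAIL receptor 1, fell in A20-KO against A20-WT. TNFRSF10A (chr8:23190452-23225126) had 13.8, 13.3 and 13.4 FPKM in A20-WT, 9.26, 9.53 and 7.33 in those labelled A20-KO, and 12.1, 11.7 and 11.0 in A20-OE. The 3 groups did not overlap, with A20-OE between the others, but A20-OE against A20-WT did not pass in the main fit (-0.22 on the log2 scale, adjusted p = 0.16). The log2 fold change was -0.64 (SE 0.11, adjusted p = 0.0043) in A20-KO against A20-WT, and 0.41 (95% interval 0.16 to 0.66) in A20-OE against A20-KO with an adjusted p of 0.051. In A20-OE against A20-KO TNFRSF10A passed under 5 of 19 alternatives (adjusted p 0.034 to 0.049), with values up to 0.17 under the others. Antisense genes share 16.6% of its exonic bases.

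Its ligand TNFSF10 (TRAIL) was barely detected, with 0, 1 and 3 reads in A20-WT, 5, 10 and 5 in those labelled A20-KO, and 2, 3 and 18 in A20-OE. The ratio of summed reads per total was 5.12 for A20-KO against A20-WT (exact 95% interval 1.72 to 20.6), and this interval covers counting error only. In A20-OE, 18 of the 23 reads came from replicate 3. FADD, the adaptor, was at 7.44 ± 1.59, 7.80 ± 0.294 and 5.96 ± 0.526 FPKM, and an overlapping opposite-strand gene, AP000879.1, covers 54.9% of its exonic bases. TNFRSF1B, TNF receptor 2, ranged from 0.193 to 0.396 FPKM over all libraries, and neither gene passed in any comparison in the main fit. FADD passed in A20-OE against A20-WT without A20-WT replicate 1 (log2 fold change -0.47, adjusted p = 0.011) and with the GC content correction (-0.46, 0.0021). In A20-OE against A20-KO FADD passed with only the 2 groups compared (adjusted p = 0.040) and without A20-WT replicate 1 (0.031). Under the other alternatives FADD did not pass, with an adjusted p up to 0.45 in A20-OE against A20-WT and 0.37 in A20-OE against A20-KO.

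For necroptosis, RIPK3, the kinase of the pathway, had 0, 2 and 1 reads in A20-WT, 0, 0 and 0 in those labelled A20-KO, and 0, 0 and 2 in A20-OE. These counts are all under the floor of 3 reads, which corresponds to at most 0.0401 FPKM for this gene. MLKL, the membrane-disrupting effector, fell. MLKL (chr16:74671855-74700960) had 2.71, 2.54 and 2.49 FPKM in A20-WT, 1.48, 1.14 and 1.48 in those labelled A20-KO, and 1.23, 1.32 and 1.10 in A20-OE. Every A20-WT library was above all others. The log2 fold change was -0.88 (SE 0.15, adjusted p = 0.0036) in A20-KO against A20-WT, -1.02 (adjusted p = 0.00091) in A20-OE against A20-WT and -0.15 (95% interval -0.48 to 0.18, adjusted p = 0.57) in A20-OE against A20-KO.

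Downstream of mitochondria, CYCS, which encodes cytochrome c, had 46.9, 54.1 and 52.9 FPKM in A20-WT, 41.7, 40.2 and 42.1 in those labelled A20-KO, and 37.0, 33.9 and 36.6 in A20-OE. The 3 groups did not overlap. CYCS fell by 0.31 on the log2 scale in A20-KO against A20-WT (adjusted p = 0.033) and by 0.52 in A20-OE against A20-WT (adjusted p = 0.0021). A20-OE against A20-KO did not pass (-0.21, adjusted p = 0.17). The first call was lost without A20-WT replicate 2 or 3, any library labelled A20-KO, or A20-OE replicate 1 (adjusted p 0.0547 to 0.106). That call was also lost with only the 2 groups compared (adjusted p = 0.071) and with no variance trend (0.077). With the GC content correction the log2 fold change was -0.08 (adjusted p = 0.72). The annotation names 40 CYCS pseudogenes, so reads may be shared between copies.

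HTRA2, a mitochondrial protease that antagonises IAPs, had 7.50, 7.40 and 8.82 FPKM in A20-WT, 11.4, 10.2 and 12.8 in those labelled A20-KO, and 8.91, 8.42 and 8.43 in A20-OE. The libraries labelled A20-KO were above all others, and A20-OE overlapped A20-WT. HTRA2 rose by 0.53 on the log2 scale in A20-KO against A20-WT (adjusted p = 0.0099), and with the GC content correction its log2 fold change was 0.20 (adjusted p = 0.12). In A20-OE against A20-KO it was -0.41 (adjusted p = 0.054). There HTRA2 passed under 6 of 19 alternatives (adjusted p 0.031 to 0.045), with values up to 0.16 under the others. Exons of LOXL3 and AUP1 on the opposite strand cover 36.9% of its exonic bases, and its GC content is 60.5%.

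APAF1, the scaffold of the apoptosome, had 4.36 ± 0.358 FPKM in A20-WT, 3.41 ± 1.11 in A20-KO and 2.07 ± 0.297 in A20-OE. It fell in A20-OE against A20-WT (log2 fold change -1.04, adjusted p = 0.0084). A20-KO replicate 3 stood at 2.16 FPKM, against 3.79 and 4.27 in the other 2, and without it the log2 fold change in A20-OE against A20-KO went from -0.65 (adjusted p = 0.12) to -0.94 (adjusted p = 0.019). XIAP, the caspase inhibitor, was at 5.81 ± 0.666, 4.24 ± 1.02 and 4.94 ± 0.495 FPKM and did not pass in any comparison in the main fit. Its log2 fold change of -0.47 in A20-KO against A20-WT (adjusted p = 0.094) passed with the replicate block (0.023), and that of -0.63 without A20-KO replicate 2 did too (0.039). With other libraries left out the adjusted p for XIAP there ran up to 0.25. The IAP antagonist DIABLO (SMAC) ranged from 0.291 to 0.494 FPKM. Another gene of the same name shares 29.6% of its exonic bases, so its level is uncertain.

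Of the gasdermins, GSDMD, the pore protein cut by CASP4, had 10.8, 14.5 and 16.0 FPKM in A20-WT, 16.5, 15.0 and 21.1 in those labelled A20-KO, and 11.1, 9.23 and 11.3 in A20-OE. It fell in A20-OE against A20-KO (-0.72 on the log2 scale, adjusted p = 0.038), where the groups did not overlap. The call did not hold in 7 of the 9 fits with a library left out, all but those without A20-WT replicate 1 or 3 (adjusted p 0.0503 to 0.146). It was also lost with no filter on low values (adjusted p = 0.065) and with no variance trend (0.072). GSDME, another gasdermin, rose in A20-OE against A20-WT from 1.26 ± 0.173 to 1.91 ± 0.107 FPKM (log2 fold change 0.57, adjusted p = 0.017). The GSDME call did not hold without A20-WT replicate 2 (adjusted p = 0.0615) or A20-OE replicate 2 (adjusted p = 0.0585). In the libraries labelled A20-KO GSDME was at 1.77 ± 0.191 FPKM, with a log2 fold change of 0.46 against A20-WT (adjusted p = 0.052). That difference passed under 5 of 19 alternatives, over which the adjusted p ran from 0.012 to 0.17. In A20-OE against A20-KO the log2 fold change of GSDME was 0.11 (adjusted p = 0.69).

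Beside the members, 58 other genes of these pathways were listed and 45 were tested. In A20-KO against A20-WT 8 rose and 6 fell, 17.8% and 13.3% of those tested, against 11.3% and 11% of all genes. In A20-OE against A20-KO 5 rose and 6 fell, 11.1% and 13.3%, against 4.43% and 4.54%. In A20-OE against A20-WT 11 rose and 9 fell, 24.4% and 20%, against 15.7% and 15.4%. GSDMB, a relative of GSDMD and GSDME, rose in A20-KO against A20-WT from 4.03 ± 0.228 to 10.7 ± 0.473 FPKM (log2 fold change 1.39, adjusted p = 5.2e-05). BNIP3 and BNIP3L, mitochondrial BH3 proteins known for mitophagy, rose in A20-OE against A20-KO by 1.06 and 1.04 on the log2 scale (adjusted p = 0.00067 and 0.00072). In A20-OE against A20-WT NLRP1, an inflammasome sensor, rose by 1.40 and BIRC3, an IAP and NF-kB target, by 1.07. BIRC5 (survivin) fell by 1.39, the mitochondrial phosphatase PGAM5 by 1.14 and BCL2L12 by 1.09 in the same comparison.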

How the data were processed

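RNA was extracted from HCT116 cells and poly-A libraries were sequenced as 150 bp paired-end reads. Per the labels, the authors aligned with HISAT2 2.0.5 and counted with featureCounts 1.5.0-p3, and deposited FPKM per gene. Their genome build and strand setting are not given in the sources used here, and all 58735 gene coordinates match GENCODE 29 on GRCh38. Depth per library was recovered from the FPKM steps: 100% of values were whole reads within a tolerance of 0.1. The recovered totals were 0.950 to 1.07 times the depth the FPKM imply, so that depth is not the plain total of assigned reads. Limma-voom was scaled by the recovered totals instead.

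FPKM are not counts, so limma 3.58.1 in R 4.3.3 was fitted with a variance trend on log2(FPKM + 0.1) to all 9 libraries, over the 21636 genes with a mean of at least 0.1 FPKM, two-sided. Fold changes are on that scale, which understates those of low genes. Exact permutation of 3 against 3 libraries cannot go below p = 0.1. The script was tested on simulated data. GC content came from GENCODE 29, and motifs and promoters from RefSeq. Python 3.11.15 was used for the rest.

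Groups follow the genotype labels. Members and lists were chosen with earlier results of these data known. Named were TNFAIP3, all members, and the 8 other pathway genes with the largest change past an adjusted p of 0.05 and 2-fold in any comparison. Alternatives were pseudocounts of 1 and 0.01, no filter, a mean of at least 1 FPKM, median-of-ratios scaling, only 2 groups, the replicate block, no variance trend, limma-voom, each library left out, and a GC content correction in 50 bins added after seeing the data. A few genes of the pathway and marker lists are not reported here by name.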

Additional observations from a re-analysis of the deposited data

How the results depend on the processing

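In A20-KO against A20-WT, the 9 members that passed became 6 to 9 with a library left out, and BMF, CASP4, MLKL, CASP2 and TNFRSF10A were among them in every setting tried. The count past 2-fold there was 1, became 0 with a pseudocount of 1 and 2 with the GC content correction, and stayed 1 with any library left out. In A20-OE against A20-KO the count of 3 was the least stable. It was 1 with no filter, 5 with a mean of at least 1 FPKM, 8 with only the 2 groups compared, 7 with the replicate block, 0 with no variance trend, 6 with limma-voom, 7 with the GC content correction, and 0 to 9 with a library left out. The count of 9 came without A20-WT replicate 1, and it was 0 without A20-WT replicate 2, A20-KO replicate 1, or A20-OE replicate 1 or 2. In A20-OE against A20-WT the 13 members (9 of them lower) became 9 to 15 with a library left out, 16 with limma-voom and 19 (5 higher and 14 lower) with the GC content correction, and the 4 past 2-fold became 0 with a pseudocount of 1 and 2 to 4 with a library left out. The BOK difference in A20-KO against A20-WT reversed to -0.31 with the GC content correction. Of 2772 values of single genes (the tested members, TNFAIP3 and the other genes named with a comparison) under these settings, 2511 kept their direction and side of the threshold. The causes were not tested.

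Replicate numbers did not clearly pair the libraries: correlations of same-numbered deviations ran from -0.027 to 0.121, and 4 of 9 libraries correlated best with their own number. With the replicate block, 9 members passed in A20-KO against A20-WT, 7 in A20-OE against A20-KO and 14 in A20-OE against A20-WT. Over all genes, the block called 5602, 2577 and 7348 in these comparisons, against 4816, 1940 and 6735 without it. Over all genes, the 1940 calls in A20-OE against A20-KO ran from 454 to 3237 with a library left out and were 1222 with no filter, 1224 with no variance trend and 3398 with the GC content correction. Of the calls there, 49.4% were higher, and 38.1% with limma-voom. With only the 2 groups compared, 3060 genes were called in A20-KO against A20-WT against 4816. A pseudocount of 1 left 472, 155 and 976 genes past 2-fold, against 1512, 517 and 2571. Depth limits BCL2A1, CASP1, TNFSF10 and RIPK3, which had at most 18 reads in a library.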

Other observations

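The receptors for TRAIL differed in level and direction. They were set side by side after their values were seen. TNFRSF10A fell in A20-KO against A20-WT (log2 fold change -0.64), while TNFRSF10D, a decoy receptor without a functional death domain, rose from 22.8 ± 0.663 to 32.1 ± 3.33 FPKM (SD, n = 3; log2 fold change 0.48, adjusted p = 0.0065 by limma). TNFRSF10D rose again in A20-OE against A20-KO to 47.2 ± 0.289 FPKM (0.56, adjusted p = 0.010, and 0.051 without A20-OE replicate 1). TNFRSF10C, the decoy anchored by a lipid tail, rose in A20-OE against A20-KO from 1.33 ± 0.285 to 2.57 ± 0.645 FPKM (0.90, adjusted p = 0.039). That call was lost without A20-WT replicate 2 and without any one of the A20-KO or A20-OE libraries (adjusted p from 0.053 to 0.14). TNFRSF10C also missed the threshold there with no filter (adjusted p = 0.069), only the 2 groups compared (0.063) and no variance trend (0.060). TNFRSF10B, the other death-inducing receptor, was the most abundant of the signalling pair, at 31.2 ± 1.40, 32.5 ± 2.13 and 37.0 ± 0.476 FPKM in A20-WT, A20-KO and A20-OE, and its log2 fold change in A20-KO against A20-WT was 0.06 (adjusted p = 0.68). TNFRSF10B rose in A20-OE against A20-WT by 0.25 (adjusted p = 0.049), a call lost under 12 of 19 alternatives. FAS, another death receptor, fell in A20-KO against A20-WT from 4.48 ± 0.836 to 2.91 ± 0.445 FPKM (-0.60, adjusted p = 0.023), with an adjusted p of 0.080 without A20-KO replicate 1 and 0.072 without A20-KO replicate 3. With only the 2 groups compared, the adjusted p for FAS was 0.077.

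BAX, the partner of BAK1 in pore formation, fell in A20-KO against A20-WT from 31.8 ± 6.63 to 19.3 ± 4.30 FPKM (log2 fold change -0.71, adjusted p = 0.028 by limma). Without A20-WT replicate 2 or 3, A20-KO replicate 1 or 2, or A20-OE replicate 1, the adjusted p for BAX was 0.052 to 0.094. The BAX value was 0.085 with only the 2 groups compared, 0.055 with no variance trend and 0.052 with no filter. RBCK1, a subunit of the linear ubiquitin ligase that acts on the same receptor complexes as A20, rose from 17.0 ± 2.38 to 27.6 ± 4.08 FPKM (0.69, adjusted p = 0.0065). RIPK1, the kinase that A20 acts on, was at 7.61 ± 0.352, 7.74 ± 0.332 and 6.99 ± 0.320 FPKM in the 3 groups, and none of its comparisons passed. These genes were named after their values were seen.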
